A study of Mus musculus with 3 samples.

Results

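The levels of 7 adhesion-related genes were followed in follicular stromal cells of the mouse lymph node: Madcam1, Vcam1, Icam1, Icam2, Itgb1, Itgav and Bst1, which are 7 of the 51912 genes in the count tables and were taken by their gene symbol. Their levels and their presence in the same barcode were compared between stromal barcodes with at least 1 UMI (a counted RNA molecule) of Cr2, the complement receptor that marks follicular dendritic cells (FDCs), and all other stromal barcodes. There were 229 Cr2-positive and 1957 other stromal barcodes among 5486 barcodes.

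The cells came from lymph nodes of C57BL/6 mice carrying CXCL13-TdTomato, a transgene in which regulatory sequence of the chemokine gene Cxcl13 drives Cre and marks the B cell follicle reticular cells with the TdTomato protein. They were sorted as live, podoplanin-positive, TdTomato-positive cells that lacked CD31 and CD45. The tissue had been digested with collagenase, dispase and DNase, and the cells were run with the 10x Genomics 3′ kit. The methods of the paper differ in part. They name collagenase P and DNase I without dispase, and no CD31 or CD45 for the sort of these cells. The 2 libraries called 2-IC here came from mice given a first antigen-immunocomplex (IC) 7 days before analysis and a second one 24 h before it, and the 1 library called 1-IC came from mice given a single IC 24 h before. All mice thus carried the reporter and had received an IC, and nodes of several mice were pooled. The short descriptions of the 2-IC libraries differ from their titles, and the titles were followed.

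Madcam1, Vcam1, Icam1 and Icam2 encode members of the immunoglobulin superfamily that sit on the cell surface and are bound by integrins of leukocytes. On FDCs, VCAM and ICAM proteins are known to hold germinal centre B cells to the FDC surface, and MAdCAM is known from the vessels of gut-associated tissue and from reticular cells at the rim of the follicle. In flow cytometry the paper gated FDCs by surface MAdCAM together with a high level of the Cr2 protein. In bone marrow chimaeras made to study FDCs without Cr2, it identified FDCs by FCGR2B and VCAM1 instead. Itgb1 and Itgav encode integrin chains, which pair with other chains to bind matrix proteins, and Bst1 encodes CD157, an ectoenzyme anchored to the membrane of stromal cells.

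On the mouse build GRCm38, the annotated protein-coding genes lie at chr10:79664559-79668537 (Madcam1, plus strand), chr3:116109949-116129688 (Vcam1, minus strand), chr9:21015985-21028817 (Icam1, plus strand), chr11:106377656-106388075 (Icam2, minus strand), chr8:128685654-128733200 (Itgb1, plus strand), chr2:83724397-83806916 (Itgav, plus strand) and chr5:43818885-43843986 (Bst1, plus strand). RefSeq promoter sequences of the build GRCm38.p6 were matched for 4 of the 7 genes, namely Madcam1, Icam1, Itgb1 and Itgav. They run from 250 bases before to 50 bases after the start annotated for the promoter. For Icam1 this start lies upstream of the gene start given above. The promoters of Madcam1 and Itgav, the genes with the largest differences between Cr2-positive and other barcodes, and of Icam1, whose difference did not pass the test, are shown here 5′ to 3′ on the strand of the gene. They lie at chr10:79664309-79664608, chr2:83724147-83724446 and chr9:21015690-21015989, all on the plus strand. Capitals mark matches to the NF-kappa B consensus of 10 bases, searched on both strands.
Madcam1: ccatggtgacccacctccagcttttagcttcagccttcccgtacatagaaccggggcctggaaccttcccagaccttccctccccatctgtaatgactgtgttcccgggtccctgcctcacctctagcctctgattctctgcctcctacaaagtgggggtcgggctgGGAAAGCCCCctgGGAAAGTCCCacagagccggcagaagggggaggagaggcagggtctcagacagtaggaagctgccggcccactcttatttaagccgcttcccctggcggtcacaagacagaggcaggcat
Itgav: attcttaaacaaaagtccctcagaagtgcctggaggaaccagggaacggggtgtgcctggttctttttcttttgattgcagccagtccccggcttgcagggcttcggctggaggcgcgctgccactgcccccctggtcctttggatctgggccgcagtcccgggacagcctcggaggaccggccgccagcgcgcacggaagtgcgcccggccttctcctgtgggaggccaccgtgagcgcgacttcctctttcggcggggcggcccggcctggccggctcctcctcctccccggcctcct
Icam1: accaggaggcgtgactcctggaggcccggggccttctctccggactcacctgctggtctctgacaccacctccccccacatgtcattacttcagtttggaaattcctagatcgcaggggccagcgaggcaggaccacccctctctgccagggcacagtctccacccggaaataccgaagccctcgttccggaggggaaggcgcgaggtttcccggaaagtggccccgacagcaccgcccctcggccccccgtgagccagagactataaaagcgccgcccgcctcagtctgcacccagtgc
The Madcam1 promoter held 2 matches, at positions -83 to -74 and -70 to -61 from the start site, both on the strand opposite to the gene, where they read GGGGCTTTCC and GGGACTTTCC. At least 1 match stood in 8.46% of all 32851 promoters in the table and 2 or more, overlapping ones included, in 3.39%. No match was found in the windows of Icam1, Itgb1 and Itgav, which says only that these letters are not in those windows.

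The 3 libraries held 20607903 UMIs in 3790 barcodes (2-IC replicate 1), 12788101 in 1029 (2-IC replicate 2) and 3766526 in 667 (1-IC). After the filters there were 1495, 381 and 310 stromal barcodes in this order, which is kept throughout, and 145, 34 and 50 of them were Cr2-positive (9.70%, 8.92% and 16.1%). The median depth was 5166, 10682.5 and 4836.5 UMIs in Cr2-positive barcodes and 4728.5, 15109 and 6325.5 in other stroma. The 2-IC libraries shared 76 barcodes, and in 75 of these the shallower copy held under 5% of the UMIs of the deeper one; 36 and 17 of the copies were stromal, and 2 and 2 were Cr2-positive. The Cr2-positive class was read beside 7 other FDC genes, and all 7 were higher than in other stroma (edgeR quasi-likelihood test, adjusted p under 0.05). Their summed level was 22330 to 39327 CPM (counts scaled to a total of 1000000) against 7164 to 10634. The list of FDC genes was chosen with earlier results of these data known, so it is no independent check of the class. The 10 B cell markers summed to 427 to 654 CPM in Cr2-positive and 652 to 807 in other stroma, the 10 macrophage and dendritic cell markers to 234 to 445 and 75.5 to 218, and the 10 endothelial markers to 38.6 to 78.1 and 57.6 to 89.9. Most endothelial marker RNA in Cr2-positive barcodes was Eng (67.4, 36.2 and 49.8 CPM), and Cdh5 was at 4.73, 2.41 and 9.34 CPM from 4, 1 and 3 UMIs, against 1.48, 0 and 0 CPM in other stroma. Kdr, Tie1 and Esam were at 0 in every library there, and at or under 0.191 CPM in other stroma too, and Cldn5, Egfl7 and Ly6c1 were at 0 through the filter on contaminant genes. Of the 3 macrophage and dendritic cell markers that could be tested 2 were higher in Cr2-positive barcodes, namely the lysozyme gene Lyz2 by 1.52 on the log2 scale (SE 0.34, adjusted p = 0.00439, edgeR) and Aif1 by 1.11 (SE 0.19, adjusted p = 0.000377). Of the 3 B cell markers tested, Spib was higher (0.98) and Ebf1 lower (-0.72). The part of these markers in the results was not tested.

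UMI counts were summed over the barcodes of a class in each library, and 6 such sums (2 classes in 3 libraries) were compared in edgeR with the library as a block. Of 9422 genes tested, 1823 (19.3%) differed at an adjusted p under 0.05, with 980 (10.4%) higher and 843 (8.95%) lower in Cr2-positive barcodes. Of the 6 members tested, 4 were higher in Cr2-positive barcodes (Madcam1, Itgav, Bst1 and Vcam1), 2 did not pass the test (Icam1 and Itgb1), and Icam2 did not pass the filter on low counts. The median log2 fold change was 0.94 over the 6 members and -0.01 over all genes tested. The same 4 members were called when the barcodes shared between libraries were left out. Where barcodes with contaminant genes were kept, they were called too, with smaller log2 fold changes of Madcam1 (3.08) and Itgav (1.08).

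Among the ligands of leukocyte integrins, Madcam1 stood furthest from other stroma. Its summed level in Cr2-positive barcodes was 292, 188 and 523 CPM, against 17.2, 8.96 and 32.4 CPM in other stroma. The groups did not overlap, and within each library the Cr2-positive level was 17.0-, 21.0- and 16.1-fold that of other stroma. The fitted difference was 4.14 on the log2 scale (SE 0.17, adjusted p = 1.36e-10, edgeR). In immune barcodes of the same libraries, given as a background, the level was 4.90, 7.15 and 7.52 CPM. Whether this was free RNA or came from stromal cells under the same barcode was not tested.

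Vcam1 was abundant in all stroma, with 1628, 1308 and 1896 CPM in Cr2-positive barcodes and 1008, 966 and 871 CPM in other stroma. The lowest Cr2-positive library was above the highest library of other stroma. The difference was 0.75 on the log2 scale (SE 0.14, adjusted p = 0.00107, edgeR), and the folds within libraries were 1.61, 1.35 and 2.18. Without the library as a block the adjusted p in edgeR was 0.176, and the cause of this change was not tested. In immune barcodes Vcam1 was at 106, 61.1 and 53.7 CPM.

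Icam1 was measured at 218, 176 and 184 CPM in Cr2-positive barcodes and 214, 201 and 150 CPM in other stroma. These values overlapped, and the fitted difference was 0.03 on the log2 scale (SE 0.16, adjusted p = 0.925, edgeR). Its sign turned when the 1-IC library was left out (-0.11).

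Icam2, a ligand typical of leukocytes and vessels, was close to the limit of detection in stroma. Cr2-positive barcodes held 1, 0 and 0 of its UMIs, and other stroma held 3, 1 and 3. At 0 UMIs, the limit in the Cr2-positive sums of 2-IC replicate 2 and 1-IC was 7.24 and 9.34 CPM (3 counts of the total), so a low level in these sums was not detectable. No fold is given for Icam2.

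Of the integrin chains, Itgav differed and Itgb1 did not pass the test. Itgav was at 134, 208 and 134 CPM in Cr2-positive barcodes and at 44.0, 70.0 and 26.4 CPM in other stroma, with no overlap. The Cr2-positive level was 3.04-, 2.97- and 5.07-fold that of other stroma in the same library (log2 fold change 1.74, SE 0.17, adjusted p = 2.36e-06, edgeR). Itgb1, which encodes the chain shared by many matrix-binding integrins, was at 336, 396 and 374 CPM against 276, 428 and 335 CPM. Its groups overlapped (log2 fold change 0.11, SE 0.14, adjusted p = 0.662, edgeR).

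The ectoenzyme gene Bst1 was at 487, 372 and 492 CPM in Cr2-positive barcodes and at 222, 168 and 228 CPM in other stroma. The folds within libraries lay close together, at 2.19, 2.21 and 2.16 (log2 fold change 1.13, SE 0.14, adjusted p = 2.22e-05, edgeR). Immune barcodes held 20.4, 16.5 and 12.9 CPM of Bst1.

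**Figure D1:**
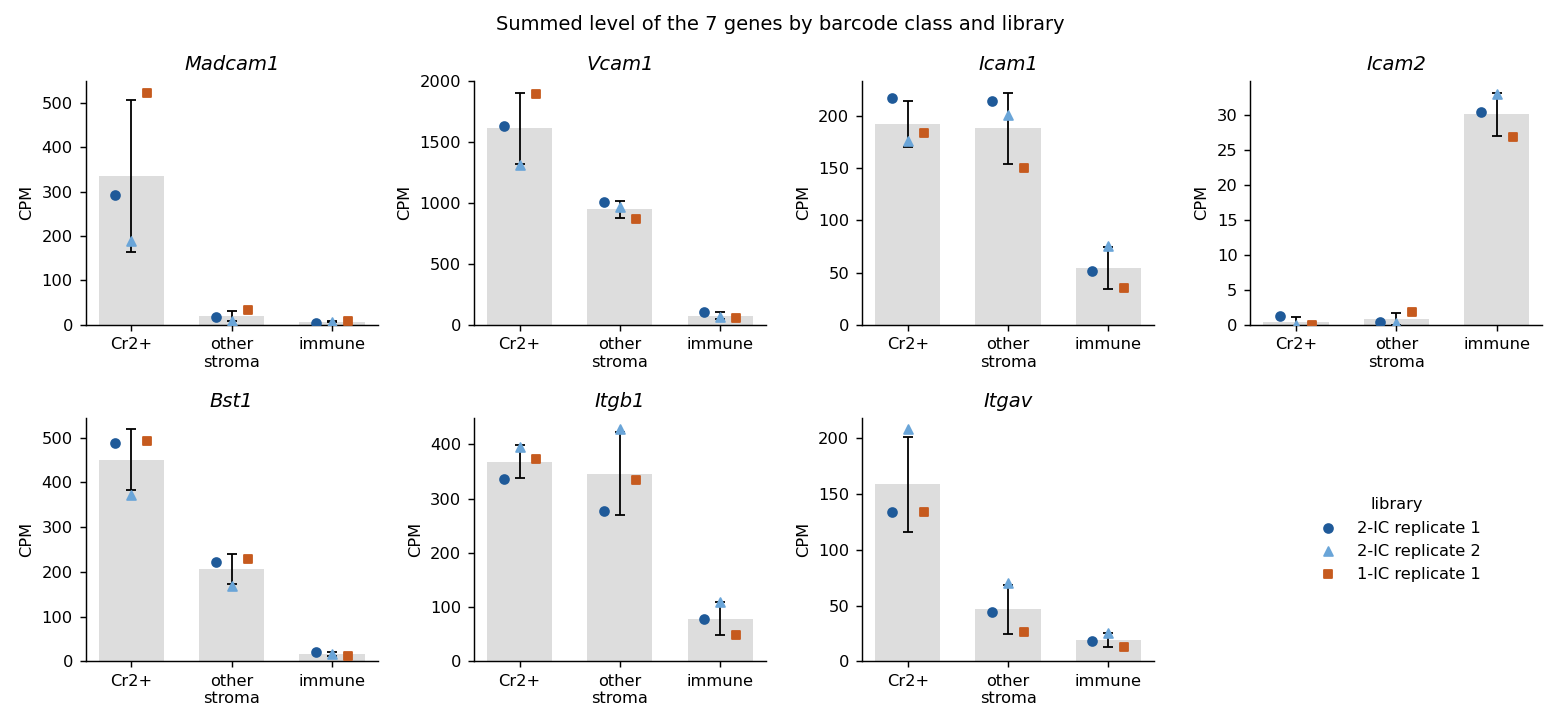
Summed level in CPM (linear axis from 0, a separate scale for each gene) of the 7 genes in Cr2-positive stromal, other stromal and immune barcodes. Points are the 3 libraries, bars their mean and error lines the SD. Madcam1, Vcam1, Bst1 and Itgav have all 3 Cr2-positive points above those of other stroma, Icam1 and Itgb1 overlap, and Icam2 is at 26.9 to 33.0 CPM in immune barcodes and at or under 1.80 CPM in stroma.

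The level of Cr2 itself was not uniform, and Cr2-positive barcodes with 1 Cr2 UMI (62, 7 and 11 barcodes) were set beside those with 2 or more (83, 27 and 39). Madcam1 was at 64.2, 38.0 and 555 CPM with 1 Cr2 UMI and at 415, 224 and 515 CPM with 2 or more. It was thus lower in the first class in both 2-IC libraries and not in the 1-IC library, where the first class held 11 barcodes. Itgav was at 67.6, 101 and 90.0 CPM with 1 Cr2 UMI and 169, 233 and 145 CPM with 2 or more, a like order in all 3 libraries. The order was the same for Vcam1 (1278, 1229 and 1710 CPM against 1816, 1327 and 1945) and for Itgb1 (284, 355 and 300 CPM against 364, 406 and 393), so it was not particular to Itgav. Bst1 showed no common order, with 291, 393 and 645 CPM against 593, 367 and 452 CPM. The median depth was 4631.5, 13430 and 7063 UMIs in the first class and 5716, 10091 and 4822 in the second, and no test was made.

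To see in which other stroma the genes were found, Cr2-negative barcodes were split by a UMI of exactly 1 of 3 genes that are not among the 7: Tnfsf11 (the cytokine RANKL), Fmod (the matrix protein fibromodulin) and Inmt (a methyltransferase). The Tnfsf11 gate held 132, 27 and 42 barcodes, the Fmod gate 69, 21 and 10 and the Inmt gate 460, 90 and 81. All Cr2-negative barcodes outside these gates formed the rest, that is, those with none or with more than 1 of the 3 genes. Of the 1025 barcodes of the rest, 571 had a UMI of Inmt, 442 of Tnfsf11 and 233 of Fmod. The rest is thus not stroma without these genes, and a gate does not hold all barcodes with its gene. The 15 sums were compared in 1 edgeR fit with the library as a block, over 7265 genes. Between Cr2-positive barcodes and the Tnfsf11, Fmod and Inmt gates, 7.46%, 9.22% and 13.9% of genes were called as higher in Cr2-positive barcodes. Of the 6 members tested, 3 were called as higher against the Tnfsf11 gate (Madcam1, Itgav and Vcam1), and 4, with Bst1, against each of the others.

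Madcam1 followed an order across these classes. It was at 97.5, 57.1 and 121 CPM in the Tnfsf11 gate, below the Cr2-positive level in each library (log2 fold change of Cr2-positive over the gate 1.87, SE 0.16, adjusted p = 1.40e-08, edgeR). The rest held 11.4, 7.24 and 21.0 CPM, and the Tnfsf11 gate was above it by 2.85 on the log2 scale (SE 0.22, adjusted p = 1.78e-08, edgeR). The Inmt gate held 3 UMIs of Madcam1 in 460 barcodes of 2-IC replicate 1 and 0 in the other libraries. No UMI of Madcam1 was found in the 100 barcodes of the Fmod gate. Against a floor of 3 counts in each library, the Cr2-positive level was at least 45.5-, 24.4- and 11.7-fold higher than in the Fmod gate, and at least 71.3- and 84.6-fold higher than in the Inmt gate in 2-IC replicate 2 and in 1-IC. A count of 0 allows a share of Fmod gate barcodes with a Madcam1 UMI of up to 4.35%, 14.3% and 30.0%, and it does not limit the share of cells that express the gene.

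Bst1 was at 455, 303 and 438 CPM in the Tnfsf11 gate, below the Cr2-positive level in each library, and the difference of 0.27 on the log2 scale did not pass the test (SE 0.14, adjusted p = 0.235, edgeR). In the Fmod gate it was at 315, 226 and 238 CPM, below the Cr2-positive level by a log2 difference of 0.74 (SE 0.15, adjusted p = 0.000743, edgeR), and below the Tnfsf11 gate in each library, a difference that did not pass the adjusted threshold (log2 difference 0.47, SE 0.15, unadjusted p = 0.00472, adjusted p = 0.0824). The Inmt gate was lowest, at 132, 83.6 and 96.9 CPM, and was below the Fmod gate by 1.31 on the log2 scale (SE 0.16, adjusted p = 8.06e-06). The rest, at 215, 174 and 226 CPM, was above the Inmt gate (log2 difference 0.88 as rest over Inmt, adjusted p = 0.000794) and did not pass against the Fmod gate (log2 difference 0.42 as Fmod over rest, SE 0.15, adjusted p = 0.255). After thinning each barcode to 2000 UMIs, the difference between Cr2-positive barcodes and the Fmod gate was 0.51 and no longer passed (adjusted p = 0.198).

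Itgav was at 77.0, 122 and 45.7 CPM in the Tnfsf11 gate, 38.6, 108 and 74.2 in the Fmod gate and 35.9, 57.2 and 26.8 in the Inmt gate. In each library it was highest in Cr2-positive barcodes. These exceeded the 3 gates by 1.02 (SE 0.20, adjusted p = 0.000921), 1.32 (SE 0.24, adjusted p = 0.000223) and 1.95 (SE 0.20, adjusted p = 2.11e-08) on the log2 scale in edgeR. Below them, the Tnfsf11 gate was above the Inmt gate by 0.94 (SE 0.22, adjusted p = 0.00504), and the Fmod gate passed against neither of these (adjusted p = 0.655 and 0.261).

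For Vcam1 the gates lay closer together, at 1230, 1375 and 1068 CPM (Tnfsf11), 1286, 1209 and 832 CPM (Fmod) and 890, 859 and 672 CPM (Inmt). Cr2-positive barcodes were higher than the Inmt gate by 0.97 on the log2 scale (SE 0.15, adjusted p = 1.84e-05, edgeR). Against the Tnfsf11 and Fmod gates the differences were 0.49 (SE 0.15, adjusted p = 0.0352) and 0.53 (SE 0.16, adjusted p = 0.0198), and both rested on the 1-IC library. Without it they were 0.23 and 0.19 (adjusted p = 0.360 and 0.406), and without 2-IC replicate 1 the first was 0.50 (adjusted p = 0.192). Without TMM scaling the first was 0.41 (adjusted p = 0.0631). In 2-IC replicate 2 the Tnfsf11 gate, at 1375 CPM, was above the Cr2-positive sum of 1308 CPM. Icam1 and Itgb1 passed the test in none of the 10 pairs of classes.

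**Figure D2:**
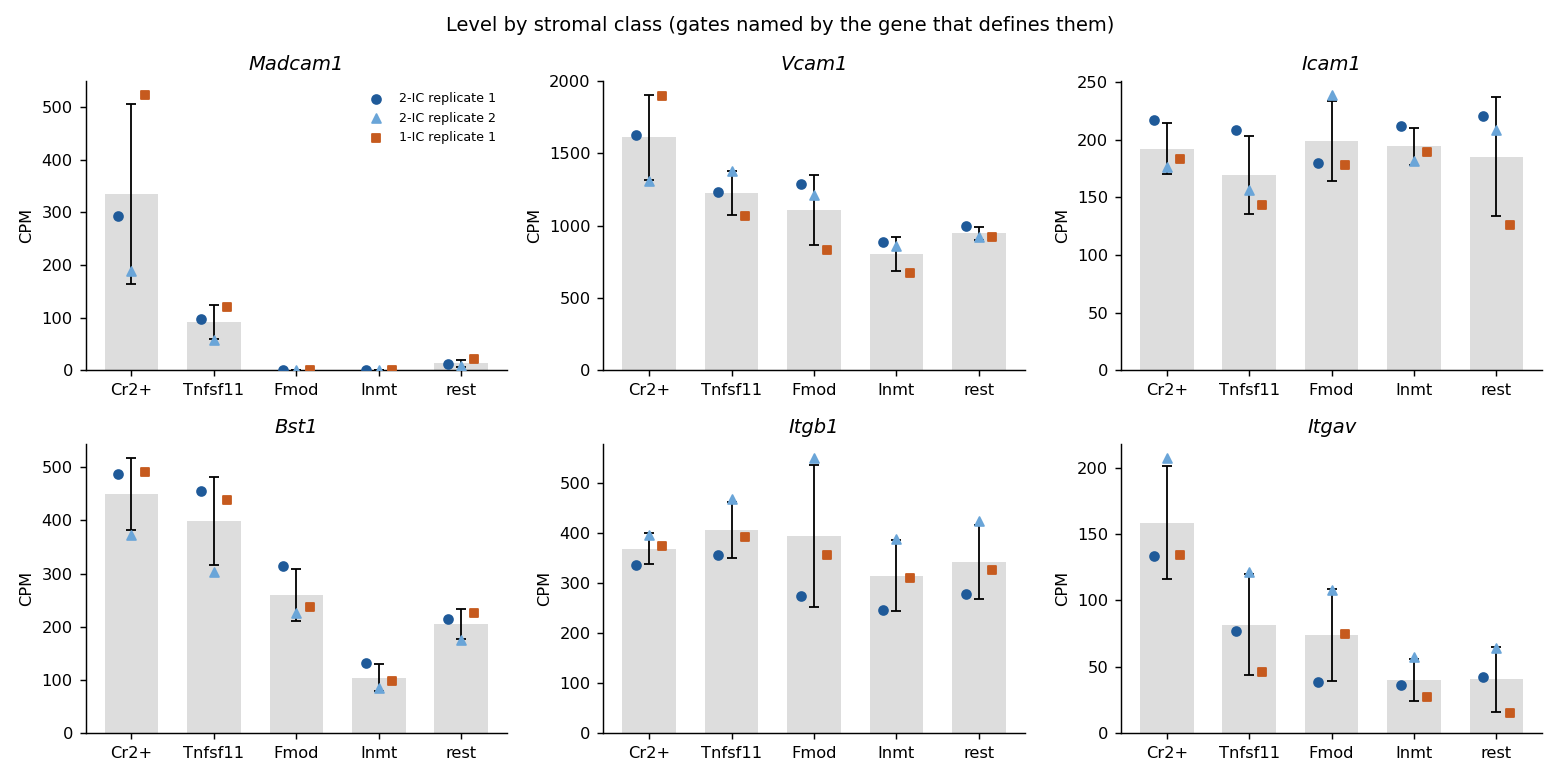
Summed level in CPM (linear axis from 0, a separate scale for each gene) in Cr2-positive barcodes, in the gates by Tnfsf11, Fmod and Inmt and in the rest of the stroma. Points are the 3 libraries, bars their mean and error lines the SD. Madcam1 falls from Cr2-positive to the Tnfsf11 gate and is 0 in the Fmod gate, Bst1 is at 303 to 455 CPM in the Tnfsf11 gate and 372 to 492 CPM in Cr2-positive barcodes, and Itgav is highest in Cr2-positive barcodes.

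Madcam1 was also found without a UMI of Cr2, in 50, 16 and 17 stromal barcodes. These barcodes were compared with Cr2-positive barcodes and with stroma that had neither gene, a comparison chosen after the levels had been seen, in an edgeR fit of the 9 sums over 6282 genes. Madcam1 and Cr2 define the classes, so no test is given for them. A barcode without a Cr2 UMI is not shown to come from a cell without Cr2 RNA. After the thinning used above, Cr2 was still found in 68.3% ± 1.53 of Cr2-positive barcodes (SD, n = 3). The classes without Cr2, and other stroma as a whole, may thus hold cells that express Cr2. The share of such cells was not tested. Bst1 was at 549, 578 and 584 CPM in Madcam1 barcodes without Cr2 and at 208, 147 and 203 CPM in barcodes with neither, with no overlap. It was the 1 of the 5 other members tested that was called as higher (log2 fold change 1.55, SE 0.18, adjusted p = 2.95e-05, where 4.09% of all genes were called as higher). The Cr2-positive barcodes, at 487, 372 and 492 CPM, were lower than these in each library with no overlap, and the difference did not pass the test (log2 fold change of Cr2-positive over Madcam1 without Cr2 -0.28, SE 0.18, adjusted p = 0.546).

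Itgav stood differently. It was at 92.0, 94.4 and 37.1 CPM in Madcam1 barcodes without Cr2, against 134, 208 and 134 CPM with Cr2 and 41.9, 68.7 and 25.7 CPM with neither. Cr2-positive barcodes exceeded Madcam1 barcodes without Cr2 by 1.05 on the log2 scale (SE 0.25, adjusted p = 0.0154, where 3.31% of genes were called as higher), and those did not pass against barcodes with neither (0.74, SE 0.25, adjusted p = 0.0861). The first call was lost without 2-IC replicate 2 (0.96, adjusted p = 0.212) and without the 1-IC library (0.87, adjusted p = 0.0591). Vcam1, at 1288, 1074 and 1473 CPM, passed against neither class (adjusted p = 0.180 and 0.244). Tnfsf11 was at 451, 397 and 417 CPM in these barcodes and at 124, 108 and 126 CPM in barcodes with neither gene.

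**Figure D3:**
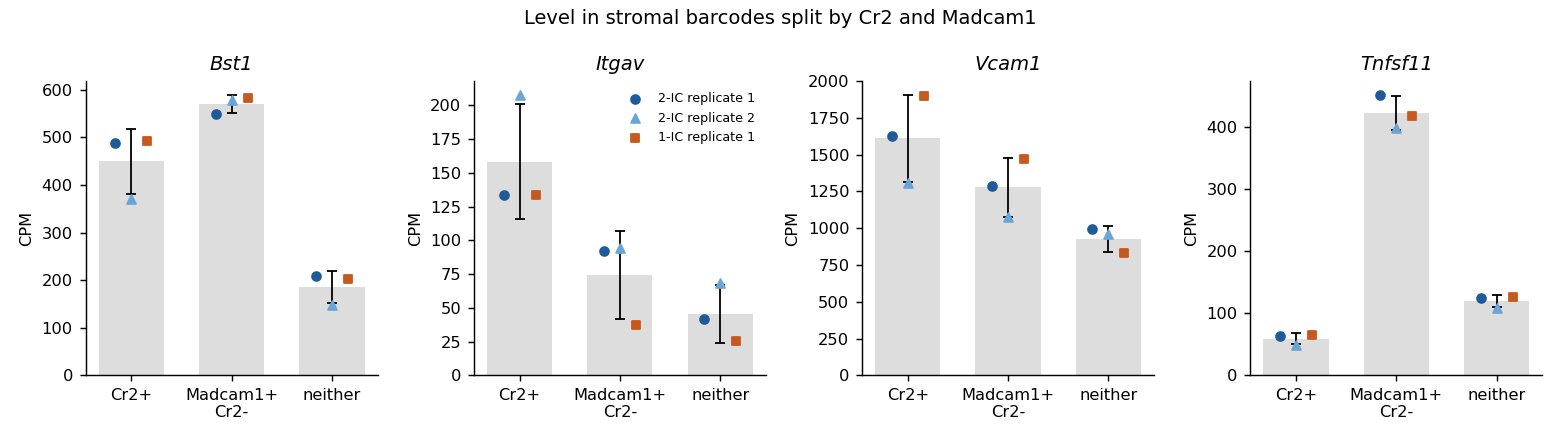
Summed level in CPM (linear axis from 0, a separate scale for each gene) of Bst1, Itgav, Vcam1 and Tnfsf11 in Cr2-positive barcodes, in barcodes with Madcam1 and no Cr2 and in barcodes with neither. Points are the 3 libraries, bars their mean and error lines the SD. Bst1 is at 549 to 584 CPM in Madcam1 barcodes without Cr2 and at 147 to 208 CPM with neither, while Itgav is highest in Cr2-positive barcodes.

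The share of barcodes with at least 1 UMI depends on depth, so each barcode was also thinned to 2000 UMIs, which left 121, 33 and 42 Cr2-positive and 1178, 311 and 224 other barcodes. Shares are given with the mean and SD over the 3 libraries. Before thinning Madcam1 was found in 38.6%, 47.1% and 64.0% of Cr2-positive barcodes (exact binomial 95% interval of the first 30.7 to 47.1%, covering counting error only) and in 3.70%, 4.61% and 6.54% of other stroma. In immune barcodes, whose median depth was 3784, 6875 and 3354 UMIs, it was found in 1.99%, 2.19% and 1.76%. At equal depth the shares were 38.3% ± 16.4 in Cr2-positive barcodes (SD, n = 3), 2.53% ± 1.30 in other stroma and 0.84% ± 0.56 in immune barcodes.

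At equal depth Vcam1 was found in 83.6% ± 9.53 of Cr2-positive and 72.3% ± 3.42 of other stromal barcodes, and in 5.70% ± 4.74 of immune barcodes. Bst1 was found in 47.1% ± 14.6 and 26.0% ± 7.02, and Itgav in 32.6% ± 12.1 and 8.21% ± 2.67. In immune barcodes the shares of these genes ran from 1.79 to 4.53% and from 1.97 to 6.55%. The shares of Icam1 (26.5% ± 7.04 and 27.6% ± 7.34) and Itgb1 (43.3% ± 1.17 and 46.0% ± 7.44) overlapped between the stromal classes. Icam2 was found in no thinned stromal barcode and in 7.36% ± 0.40 of immune barcodes.

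Co-detection was read beside the product of the single shares, the value expected if 2 genes were found independently of each other within a library. In thinned Cr2-positive barcodes Madcam1 and Vcam1 were found together in 36 of 121, 8 of 33 and 24 of 42 barcodes (29.8%, 24.2% and 57.1%). These shares were 1.11, 1.22 and 1.11 times the product, and 36 of 37, 8 of 9 and 24 of 24 Madcam1 barcodes also had Vcam1. Madcam1 and Bst1 were found together in 20.7% ± 9.53 of Cr2-positive barcodes, 0.989 to 1.47 times the product.

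In other stroma, Madcam1 and Bst1 were the pair that departed most from the product in the same direction in all 3 libraries. They were found together in 13 of 1178, 2 of 311 and 7 of 224 barcodes, which is 2.06, 2.18 and 2.42 times the product. Counts of 2 and 7 leave wide intervals, 0.078 to 2.30% and 1.27 to 6.33% of barcodes (exact binomial, counting error only). Both of these intervals included the product. Other stroma joins classes that differ in the level of both genes, and the part of this in the co-detection was not tested. In Cr2-positive barcodes Bst1 and Itgav were found together in fewer barcodes than the product in all 3 libraries (0.684, 0.880 and 0.843 times, from 10, 4 and 6 barcodes), and the intervals of these shares included the product. At equal depth the 4 genes Madcam1, Vcam1, Icam1 and Bst1 stood together in 7, 1 and 3 Cr2-positive barcodes (5.79%, 3.03% and 7.14%, beside products of 4.98%, 1.64% and 5.39%) and in 5, 0 and 1 other barcodes. Before thinning they did so in 32 of 145, 11 of 34 and 17 of 50 Cr2-positive barcodes (22.1%, 32.4% and 34.0%, beside products of 14.3%, 20.6% and 18.7%) and in 1.70%, 2.02% and 3.85% of other barcodes (products 0.833%, 1.86% and 1.52%).

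**Figure D4:**
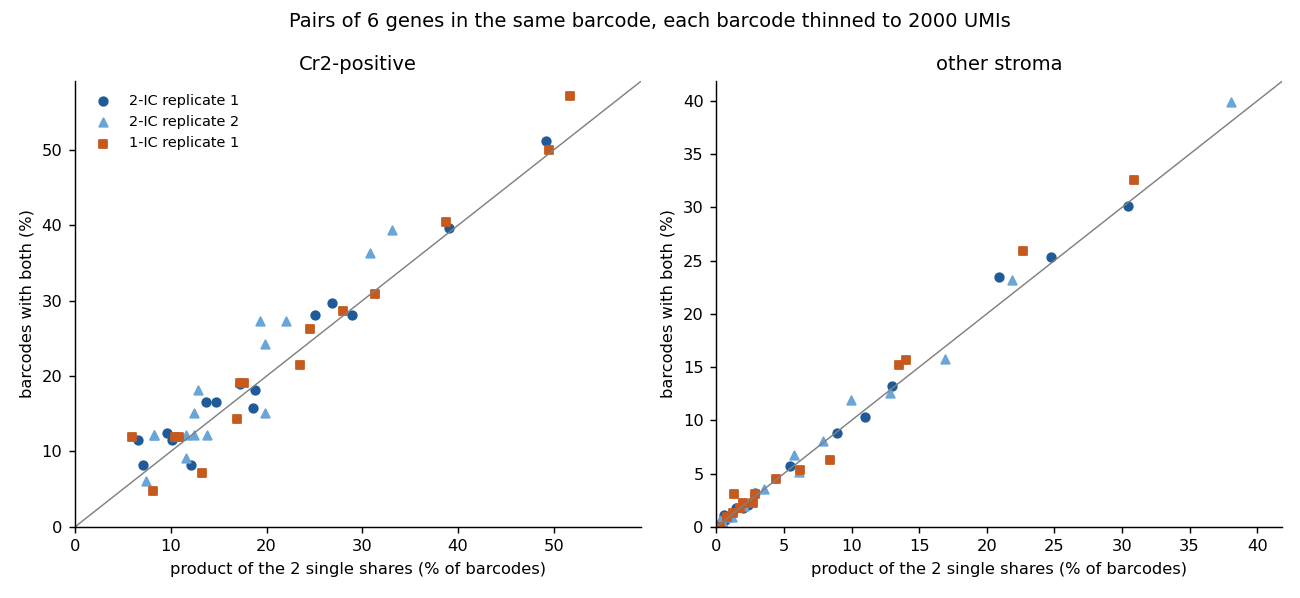
Share of barcodes with both genes of a pair (vertical axis, %) against the product of the 2 single shares (horizontal axis, %) for the 15 pairs of 6 genes, Icam2 left out, after thinning to 2000 UMIs. Each point is 1 pair in 1 library, the left panel shows Cr2-positive and the right panel other stromal barcodes, and the line marks equality. Most points lie near the line; Madcam1 and Vcam1 reach 57.1% in the Cr2-positive barcodes of the 1-IC library.

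Within the Cr2-positive barcodes, 35, 9 and 18 had under 1% of their UMIs from Malat1, an RNA that stays in the nucleus. Madcam1 was at 376, 703 and 763 CPM in these and at 275, 104 and 473 CPM in the others, higher in all 3 libraries. The fitted difference was 1.10 on the log2 scale (SE 0.41, unadjusted p = 0.0261, adjusted p = 0.118, edgeR). It passed without the 1-IC library (1.54, adjusted p = 0.0402) and with a threshold of 0.5% (1.13, adjusted p = 0.0480). Icam1 went the other way, with 121, 171 and 72.7 CPM against 237, 177 and 207 CPM (log2 fold change -0.90, SE 0.35, adjusted p = 0.125). None of the 6 members tested was called, where 237 of 3205 genes (7.39%) were, although 2 members had an unadjusted p under 0.05 in edgeR and none was called by DESeq2. Bst1 (405, 360 and 327 CPM against 504, 374 and 526 CPM) was lower in each low-Malat1 sum without passing the test (adjusted p = 0.263). The low-Malat1 barcodes were shallower, with a median of 3368, 5890 and 3207 UMIs against 5791.5, 13706 and 8370.5. They also had a higher sum of the macrophage and dendritic cell markers (514 to 1181 CPM against 188 to 293). Of these 10 markers 2 could be tested, where Lyz2 was called as higher in edgeR and Aif1 was not called. In each sum of either class, 4 to 8 of the 10 were found at all. The sum of the 7 FDC genes was 42437 to 48314 CPM against 18071 to 38060, and Cr2 was at 1832 ± 322 against 1075 ± 150 CPM (SD, n = 3). Of these FDC genes 2 were called as higher in the low-Malat1 barcodes, Fcgr2b (log2 fold change 1.21, adjusted p = 0.0324) and Fcer2a (1.61, adjusted p = 0.0309, edgeR). The other 5 were not called. Clu and Mfge8, which made up most of the sum, and Prnp were higher in each low-Malat1 sum. Sox9 was lower in each (92.3, 120 and 273 CPM against 317, 317 and 349), and Coch showed no common order. The part of depth or of these markers in the values was not tested.

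**Figure D5:**
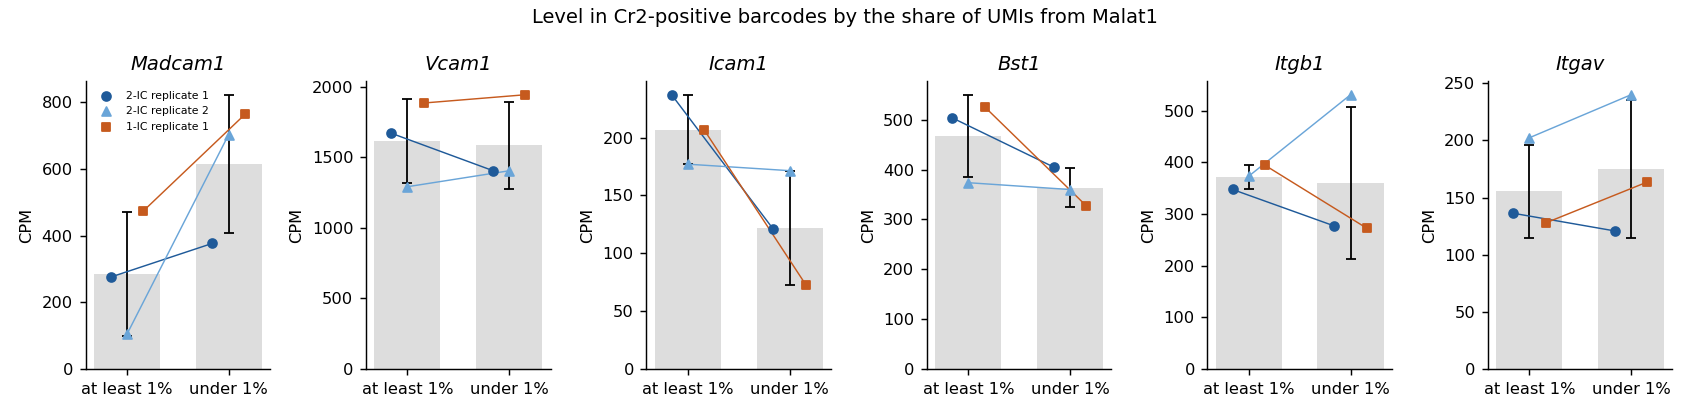
Summed level in CPM (linear axis from 0, a separate scale for each gene) of 6 genes in Cr2-positive barcodes with at least 1% and with under 1% of UMIs from Malat1. Points joined by a line are the 2 sums of 1 library, bars the mean of the 3 libraries and error lines the SD. Madcam1 is higher and Bst1 and Icam1 are lower under 1% in each library, and none of these differences passed the test.

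Levels under the schedules are set side by side as values, since 1-IC had 1 library. The paper pooled samples of independent experiments, so the schedule cannot be told apart from the experiment here. In Cr2-positive barcodes none of the 6 members with at least 50 CPM in 1 library was 2-fold or more apart from both 2-IC libraries, and 7.11% of 3897 genes were. Madcam1 came nearest, with a 1-IC level 1.79-fold that of 2-IC replicate 1 (95% interval 1.46 to 2.19, counting error only) and 2.78-fold that of replicate 2 (2.11 to 3.68), where the 2-IC libraries themselves were 1.55-fold apart. Vcam1 was 1.16- and 1.45-fold, Bst1 1.01- and 1.32-fold and Itgav 1.00- and 0.645-fold the 2-IC values. In other stroma, where 1.28% of 3507 genes were past this limit, none of the 5 members with at least 50 CPM was, and Itgav was at 0.600 and 0.377 times the 2-IC values. Madcam1, under 50 CPM there, was at 1.89 and 3.61 times. The change of the Cr2 contrast between the schedules was also fitted in edgeR, after the values had been seen. With 1 library the 1-IC arm has no spread of its own and is assumed to vary like the 2-IC libraries, so the fit has no replicate check of 1-IC. None of the 6 members was called, where 0.223% of genes were, and Vcam1, with the 1-IC contrast larger by 0.58 on the log2 scale (SE 0.24), had an unadjusted p of 0.0277 and an adjusted p of 0.795.

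Other adhesion genes were read from 3 lists in the same comparison of Cr2-positive with other stroma. Of 21 further integrin chains 6 could be tested, and 2 were higher, 2 lower and 2 not called, where 10.4% of all genes were higher and 8.95% lower. Itgb4 and Itga6, which encode the chains of a laminin-binding integrin of epithelia, were at 119 ± 27.5 and 99.2 ± 11.5 CPM in Cr2-positive barcodes (SD, n = 3) and at 2.91 ± 2.68 and 21.3 ± 1.86 CPM in other stroma. Their log2 fold changes were 5.81 (SE 0.31, adjusted p = 2.23e-09) and 2.22 (SE 0.19, adjusted p = 5.15e-07, edgeR). Itgb5, a partner chain of Itgav in a vitronectin receptor, was lower (9.57 ± 8.67 against 26.7 ± 6.12 CPM, log2 fold change -1.36, adjusted p = 0.0208), as was the collagen-binding chain gene Itga1 (log2 fold change -1.04, adjusted p = 0.0321). Among the chains on this list, the partner chain genes Itgb3, Itgb6 and Itgb8 did not pass the filter on low counts. Itgb1, described above, is not on this list.

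Of 30 other adhesion receptors 18 could be tested, with 6 higher, 1 lower and 11 not called, beside the same shares over all genes (10.4% and 8.95%). The higher ones included the junctional molecules Jam3 (log2 fold change 1.58, adjusted p = 5.33e-06) and Jam2 (2.94, adjusted p = 4.06e-05), Ncam1 (1.41, adjusted p = 9.33e-05), Nectin3 (1.85, adjusted p = 5.91e-06) and the tetraspanins Cd9 (1.33, adjusted p = 3.59e-06) and Cd82 (0.65, adjusted p = 0.0177, edgeR). The hyaluronan receptor Cd44 was the 1 that was lower, at 77.5 ± 52.9 against 162 ± 95.2 CPM (log2 fold change -1.08, adjusted p = 0.000257). Of 16 genes for proteins that link integrins to the cytoskeleton 15 could be tested. Zyx, Ilk and Actn1 were higher by 0.87, 0.59 and 0.57 on the log2 scale, Parva was lower (-0.59), and 11 were not called. With 4 of 15 called, beside 19.3% of all genes, this list was near the background.

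Across the 15 class-by-library sums, the genes whose log2 level ran most like each member were listed among 2974 genes with a mean of at least 50 CPM. These correlations share libraries and classes and are a description only. Madcam1 ran most like Cxcl13 (r = 0.94), Hamp (0.92) and Serpina1e (0.91), and Bst1 most like Mfge8 (0.97), Clu (0.93) and Srgn (0.88). Madcam1 had no UMI in the Fmod gate sums and in the Inmt gate sums of 2-IC replicate 2 and 1-IC. Its log2 values in those sums were set by the small count added before taking logs, so its correlations rest in part on them. Vcam1 ran like Tmem123 and Syngr2 (both 0.92), Itgav like Far1 (0.89), Itgb1 like Hspd1 (0.93) and Icam1 like Gnas (0.82).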

How the data were processed

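The deposited files hold UMI counts per gene and barcode, made by the authors with Cell Ranger (5.0.0 in the file header) against GRCm38. They are 3′ counts, so levels were not compared between genes. The members and gene lists were chosen with earlier results of these data known, and the difference in Madcam1 is no independent support.

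Barcodes with fewer than 200 genes, more than 10% mitochondrial UMIs or any UMI of the 13 contaminant genes of the study were left out, and stromal barcodes had more UMIs of 12 stromal than of 8 immune genes; immune barcodes had the reverse, without the contaminant filter. Nearly no doublets were called by Scrublet (17 of 4513 barcodes), so none were removed in the main comparison. Counts were summed per library and class (at least 5 barcodes) and compared in R 4.3.3 by the quasi-likelihood test of edgeR 4.0.16, with the library as a block, TMM factors, its default filter on low counts, and Benjamini-Hochberg adjusted p under 0.05 over all genes tested. SEs were taken from the F statistic. DESeq2 1.42.0 and the other alternatives are given in the closing section. In the main comparison 2 residual degrees of freedom remained (8 with gates).

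Both sums of a library come from 1 cell suspension, and their deviations from the class means correlated in each library (0.374, 0.507 and 0.385), so the block was kept. The paper describes samples from 3 independent experiments with nodes of several mice pooled. It does not say which library came from which experiment. The p-values thus refer to 3 libraries and not to mice. With the block, they set the difference between classes against its spread across these libraries. edgeR draws the spread of each gene towards that of all genes tested. The small p-values thus rest largely on this shared spread and not on the 3 values of a gene alone. On simulated counts with 200 genes changed by 2 on the log2 scale, the main comparison recovered 194. These counts were drawn without a library effect. The planted change was larger than the fitted ones of Vcam1, Bst1 and Itgav, so recovery of changes of their size was not tested. Named genes were the 7 members, Cr2, the called genes of each list with a mean of at least 50 CPM, and the 3 genes most like each member; Itga1, Itgb5, Jam2, Nectin3, Itgb3, Itgb6, Itgb8 and the endothelial markers were named after their values were seen.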

Additional observations from a re-analysis of the deposited data

Results flagged for a closer look

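Icam2 was higher in immune barcodes than in stromal barcodes. In immune barcodes, which entered no comparison, it was at 30.4 CPM in 2-IC replicate 1, 33.0 CPM in 2-IC replicate 2 and 26.9 CPM in 1-IC, from 149, 60 and 25 UMIs, and stood in 16.3%, 24.0% and 10.1% of these barcodes. The Cr2-positive and other stromal sums were at or under 1.80 CPM in each library. Stromal barcodes had passed the filter on contaminant genes, which include leukocyte and endothelial genes, and immune barcodes had not. The part of this in the difference was not tested. With no contaminant filter, 7 members passed the filter on low counts, and Icam2 was not among the 4 called between Cr2-positive and other stroma.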

How the results depend on the processing

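Of 375 log2 fold changes of members under the alternatives, 338 kept direction and side of the threshold, 14 no longer passed, 2 newly passed and 21 changed sign. None of those that changed sign had passed. In the comparison of Cr2-positive with other stroma 4 members were called under every alternative run except the fit without the library block (no replicate block), where 3 were. The genes called there were 1823, against 1123 by DESeq2, 770 with no replicate block, 718 after thinning to 2000 UMIs and 1290 to 1838 without single libraries. Leaving out Scrublet doublets took away 0 Cr2-positive and 2 other stromal barcodes, so that run could hardly differ.

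With no replicate block, 1 member instead of 3 was called against the Tnfsf11 gate, 1 instead of 4 against the Fmod gate and 0 instead of 1 between Cr2-positive barcodes and Madcam1 barcodes without Cr2. Without single libraries the last count ran from 0 to 1. For the split by Malat1, 1 member was called with the 0.5% threshold and 0 to 1 without single libraries, against 0. The genes called ranged, over the alternatives, from 310 to 1056 (Tnfsf11 gate, 906 in the fit as reported), 421 to 1357 (Fmod gate, 1272), 814 to 2505 (Inmt gate, 2080), 100 to 631 (Malat1, 237), 111 to 782 (Madcam1 without Cr2 against neither, 491), 91 to 455 (Cr2-positive against Madcam1 without Cr2, 323) and 40 to 69 (change of the Cr2 contrast by schedule, 21).

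Signs changed on the log2 scale for Icam1 against other stroma (-0.017 by DESeq2, -0.12 with no filter on low counts, -0.020 thinned, -0.083 with no contaminant filter, -0.11 to 0.081 without single libraries), the Fmod gate (-0.18 to 0.20 without single libraries) and the Inmt gate (0.0081 without TMM, 0.048 thinned). They changed for Itgb1 against other stroma (-0.038 with no filter, -0.10 with no contaminant filter) and the Fmod gate (-0.19 to 0.18 without single libraries), by Malat1 (-0.50 to 0.081 without single libraries), for Madcam1 without Cr2 against neither (-0.094 with no filter) and for Cr2-positive against Madcam1 without Cr2 (-0.046 without TMM). Itgav by Malat1 moved from -0.0095 to 0.033 without TMM, 0.060 and 0.034 with thresholds of 0.5% and 2%, 0.011 with shared barcodes left out and -0.063 to 0.029 without single libraries, and Bst1 by schedule moved to 0.010 with no filter. The causes were not tested. Thinning lowered the mean shares in Cr2-positive barcodes to 83.6% (Vcam1), 26.5% (Icam1), 47.1% (Bst1), 43.3% (Itgb1) and 32.6% (Itgav), since fewer UMIs were drawn. With 34 to 145 Cr2-positive barcodes in a library and 10 in the smallest gate, depth limits the values of Icam2 and of Madcam1 in the Fmod gate.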
